A study of Homo sapiens with 9 samples.

Results

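The 46 genes described here belong to the MHC class I antigen presentation pathway, to interferon signalling, or to the genes that interferons induce. They were taken as the entries of a deposited table whose gene symbol matched a list of 46 names. All 46 were found once among the table's 25142 entries. The list was chosen with earlier results of these data known. The values are read here as RPKM, the read number scaled to gene length and library size, which no header or label used here states and which rests on how low values scale with gene length. The cells were LNCaP, an androgen-responsive prostate cancer line grown from a metastasis, so the results describe 1 line without immune or stromal cells around it. Polyadenylated RNA was sequenced from 3 groups of 3 biological replicates, 9 libraries in all. All groups shared a steroid starvation of 24 h in medium with 5% charcoal-treated serum, and treatment then lasted 18 h. The groups were 1 nM R1881 with 10 µM MEL-6, 1 nM R1881 alone, and the DMSO vehicle. R1881 is a synthetic androgen, and MEL-6 is a test compound, given by code name only, whose effect on the androgen response the study examined.

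MHC class I molecules show peptides from inside the cell to cytotoxic T cells. A heavy chain, encoded by HLA-B, HLA-C and related genes, pairs with the light chain beta-2-microglobulin in the endoplasmic reticulum, where peptides carried in by the TAP transporter and trimmed by ERAP aminopeptidases are loaded. NLRC5 is the transactivator of class I genes, and CIITA is that of class II genes. Type I interferons bind the IFNAR1 and IFNAR2 receptor, interferon gamma binds IFNGR1 and IFNGR2, and the attached kinases JAK1, JAK2 and TYK2 activate STAT proteins. STAT2 with IRF9 forms part of the factor that binds interferon-stimulated response elements, and IRF1 is both a target and an activator in the gamma branch. Their targets include antiviral effectors such as the IFIT, IFITM, MX and OAS genes, many of which also have a basal level without interferon.

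Estimated depth was 6.84 to 19.2 M reads per library, and 3 reads in a 2 kb gene then correspond to 0.0782 to 0.219 RPKM. The R1881 libraries were deeper, at 1.37 ± 0.279 times the first vehicle library, against 0.876 ± 0.248 for R1881 with MEL-6 and 0.823 ± 0.175 for vehicle (SD, n = 3). The 8 luminal prostate markers were present in all libraries, summed at 1663 to 1706 RPKM with R1881 and MEL-6, at 4781 to 4978 RPKM with R1881, and at 1225 to 1284 RPKM with vehicle. Of 12 leukocyte markers, 6, PTPRC among them, were listed at 0 in all libraries, and the list summed to 3.22 to 4.40 RPKM with R1881 and MEL-6, 3.31 to 3.86 RPKM with R1881 and 3.34 to 3.61 RPKM with vehicle. Of 7 fibroblast markers 1 was listed at 0 throughout and 1 was at the tested level, with sums of 3.36 to 3.74 RPKM with R1881 and MEL-6, 2.20 to 2.28 RPKM with R1881 and 2.61 to 3.25 RPKM with vehicle. Of 4 endothelial markers 2 were at 0 throughout and 1 was at the tested level, with sums of 0.594 to 0.806 RPKM with R1881 and MEL-6, 0.388 to 0.486 RPKM with R1881 and 0.928 to 1.22 RPKM with vehicle. The fibroblast and endothelial sums were lowest with R1881, as were many of the genes below. The samples are labelled as 1 cell line, and each of these 2 sums rests on 1 gene at the tested level. They are therefore read as low values within the line, not as amounts of stromal cells. In bulk RNA, a change in some of the cells and a change in all of them cannot be told apart.

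Of the 46 genes, 39 reached the level required for testing, at least 0.5 RPKM in at least 3 libraries. B2M was the most abundant, and its group means were the only ones over 100 RPKM. In 17 genes the highest group mean lay between 10 and 100 RPKM, led by HLA-C, IFITM3, STAT3 and ISG15. In another 17 it lay between 1 and 10 RPKM, and in 4, IFIT3, IFITM1, OAS1 and OASL, every group mean was under 1 RPKM. The 7 genes under the tested level were HLA-G, ERAP2, CIITA, IFI27, OAS2, BST2 and XAF1. CIITA was listed at 0 in 7 of 9 libraries and at 0.0131 RPKM at most, OAS2 at 0 in 7 libraries and at 0.0303 RPKM at most, and XAF1, a pro-apoptotic interferon target, at 0 in 7 libraries and at 0.0205 RPKM at most. IFI27 lay between 0 and 0.373 RPKM, ERAP2, the second trimming aminopeptidase, between 0.210 and 0.525 RPKM, and HLA-G, the class I gene of the placenta, between 0.235 and 0.645 RPKM. BST2, also named tetherin, which holds budding virus at the cell surface, lay between 0.0862 and 0.828 RPKM. Some of the tested genes passed through the groups in which they were higher, NLRC5, IRF1 and IFIT3 among them, and a count over the tested genes is therefore not a count over all 46.

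**Figure D1:**
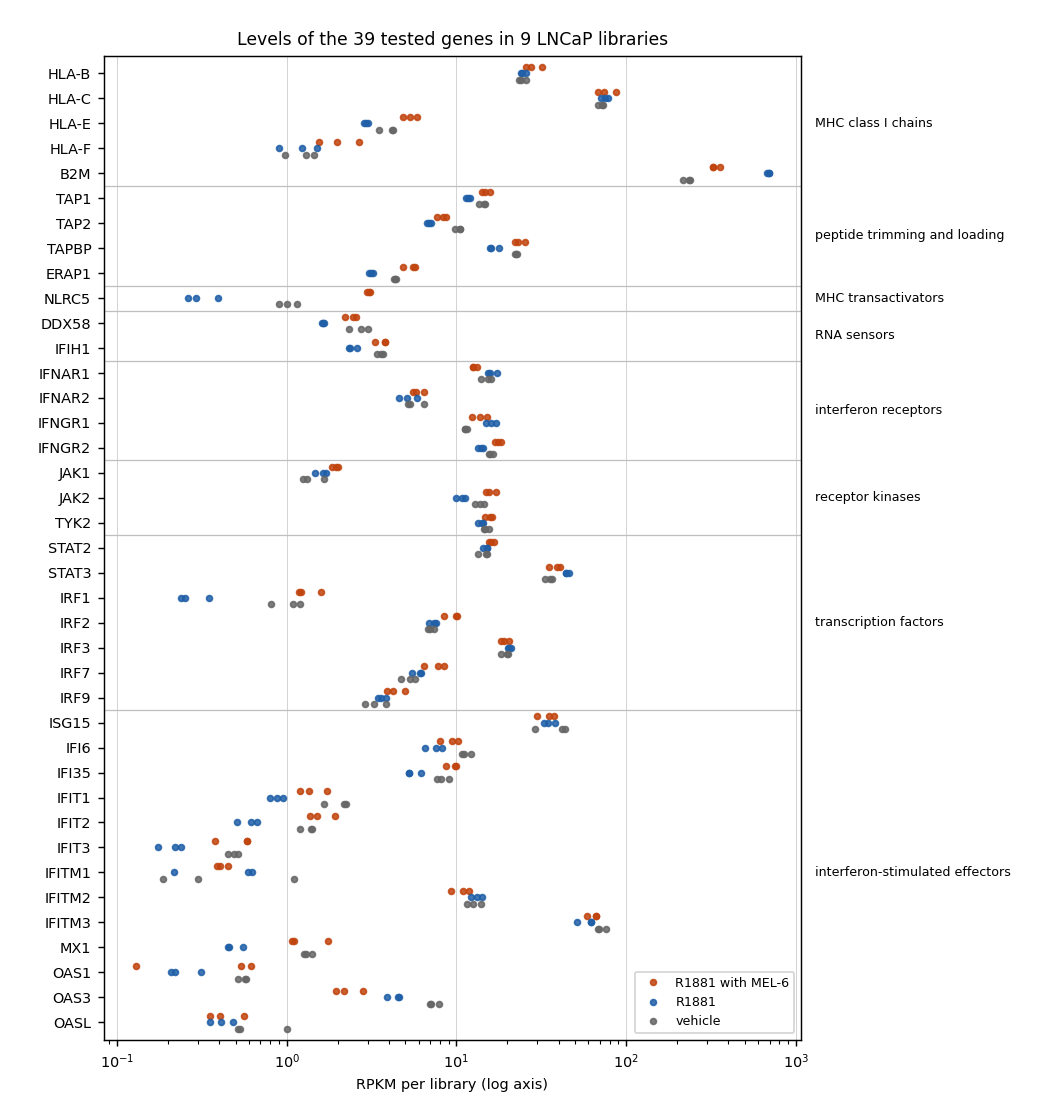
Level of each of the 39 tested genes in every library, as RPKM on a log axis, with genes grouped by role and 3 points per group for R1881 with MEL-6, R1881 and vehicle. B2M stands highest, at 680.2 to 696 RPKM with R1881, and NLRC5 shows the widest separation between R1881 with MEL-6 and R1881.

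Differences were tested by limma on log2(RPKM + 0.5) across all 13295 entries at the tested level, and a gene was called at a Benjamini-Hochberg adjusted p under 0.05. With R1881 and MEL-6 against R1881, 21 of the 39 genes rose, where 31.4% of all tested genes did, and 6 fell, where 20.6% did. With R1881 against vehicle, 3 rose, where 14.5% of all tested genes did, and 19 fell, where 31.3% did. The median log2 change of the 39 genes was 0.27 with R1881 and MEL-6 against R1881 and -0.27 with R1881 against vehicle, where the median of all tested genes was 0.07 and -0.12. Either way, 27 of the 39 were called with R1881 and MEL-6 against R1881 and 22 with R1881 against vehicle, where 52.0% and 45.8% of all tested genes were. Without any test, 24 of the 39 lay higher and 5 lower in every library with R1881 and MEL-6 than in every R1881 library, as did 35.8% and 23.9% of all tested genes. For R1881 against vehicle 3 lay higher and 22 lower in this way, as did 18.0% and 39.9% of all tested genes. Both comparisons use the same R1881 libraries, so a low R1881 value alone moves both, in opposite directions. As the list was chosen with earlier results of these data known, its shares beside those of all tested genes are a description, not a test. Under median-of-ratios scaling, the median of all tested genes with R1881 against vehicle was -0.01 in place of -0.12, and 5 of the 39 were called higher and 16 lower. The corresponding counts with R1881 and MEL-6 against R1881 were 17 higher and 7 lower. Over all tested genes, that scaling gave 3268 higher and 3783 lower calls in this comparison, in place of 4175 and 2737, and 2776 higher and 2534 lower calls with R1881 against vehicle, in place of 1930 and 4155. The changes of at least 2-fold on the fitted scale were the rises of NLRC5 and IRF1 and the fall of B2M with R1881 and MEL-6 against R1881, the rise of B2M with R1881 against vehicle, and the rise of NLRC5 and fall of OAS3 with R1881 and MEL-6 against vehicle. The added 0.5 RPKM makes changes of low genes look smaller, and with 0.1 RPKM added the falls of IRF1 (-1.57), NLRC5 (-1.43), MX1 (-1.28), IFIT1 (-1.12) and IFIT2 (-1.04) with R1881 against vehicle and the rises of IFIT2 (1.28) and MX1 (1.23) with R1881 and MEL-6 against R1881 were over 2-fold too. In mean RPKM, MX1, IFIT2 and IFIT3 were 2.68, 2.67 and 2.44 times as high with R1881 and MEL-6 as with R1881.

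**Figure D2:**
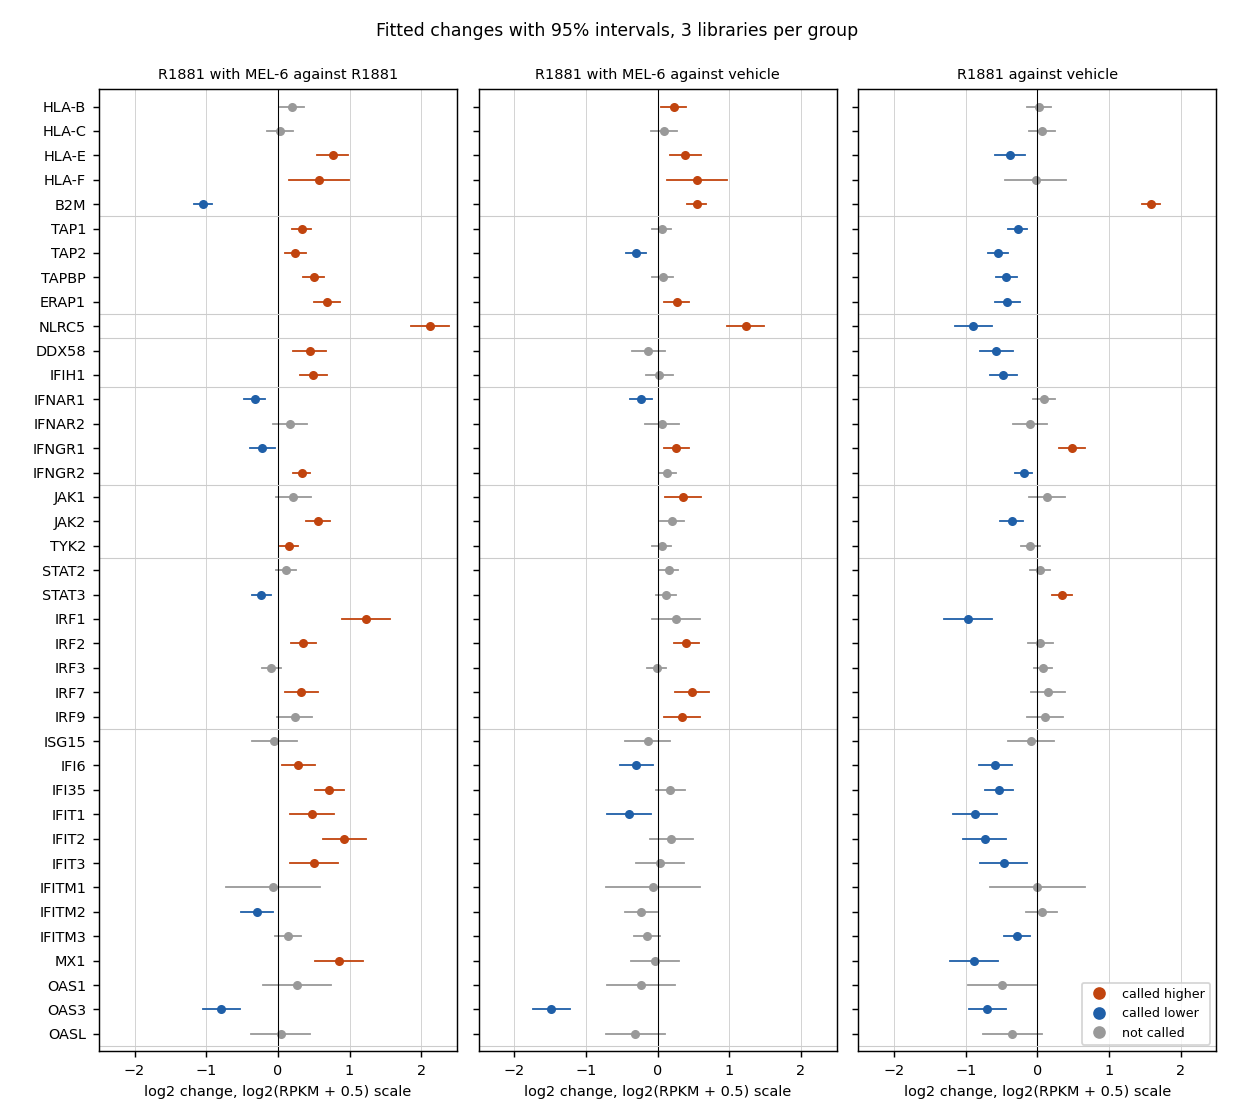
Fitted log2 change of each of the 39 tested genes with its 95% interval, on the log2(RPKM + 0.5) scale, for R1881 with MEL-6 against R1881 (left), R1881 with MEL-6 against vehicle (middle) and R1881 against vehicle (right), coloured by call. Loading genes, RNA sensors and IFIT genes lie right of 0 in the left panel and left of 0 in the right panel, whereas B2M lies on the opposite side in both, and OAS3 lies left of 0 in all panels.

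The upstream sequences of these genes are shown because interferon is known to act on its target genes through short promoter elements. RefSeq windows of 300 bases, 250 before and 50 after a gene's start on GRCh38.p14, were found for 35 of the 46 genes. NLRC5 was not among them. Windows were searched on both strands for the core of the interferon-stimulated response element (GAAA, 2 bases of any kind, GAAA), for the gamma-activated site (TTCNNNGAA), for the Y box of MHC promoters (CTGATTGG) and for the full androgen response element. The response element core was present in a window of 18 of the 35 genes, and in 4.38% of all 27305 genes with a window. The list was built partly from genes that interferons induce. A higher share of this element than over all genes was therefore built in, and is not a result. The gamma-activated site was present in 9 of 35 genes and 9.38% of all genes, and the Y box in 5 of 35 genes and 4.75% of all genes. By window rather than gene, the shares over all 35093 windows were 3.58%, 7.66% and 3.97%. The 35 genes had 52 windows, and a gene with more windows has more chances of a match. The androgen element, searched as its full 15 letters, was in none of the 35 genes and in 0.00366% of all genes. As only 1 of all 35093 windows held it, its absence from the 35 genes carries no information about them. Neighbouring matches can overlap, and a match describes letters only. In the 6 windows below, read 5′ to 3′ along the gene, capitals mark every match of these motifs.
B2M: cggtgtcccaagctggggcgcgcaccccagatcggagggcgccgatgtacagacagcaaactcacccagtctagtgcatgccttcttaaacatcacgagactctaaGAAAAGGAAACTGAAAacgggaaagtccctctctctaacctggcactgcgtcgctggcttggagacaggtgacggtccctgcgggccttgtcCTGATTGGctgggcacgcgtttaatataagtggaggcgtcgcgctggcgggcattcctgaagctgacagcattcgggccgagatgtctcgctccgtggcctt
HLA-B: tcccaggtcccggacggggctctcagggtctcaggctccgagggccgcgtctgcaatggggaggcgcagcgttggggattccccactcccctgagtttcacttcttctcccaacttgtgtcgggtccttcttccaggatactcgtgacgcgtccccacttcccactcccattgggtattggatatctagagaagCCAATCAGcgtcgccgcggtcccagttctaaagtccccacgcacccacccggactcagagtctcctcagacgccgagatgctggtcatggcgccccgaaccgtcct
TAPBP: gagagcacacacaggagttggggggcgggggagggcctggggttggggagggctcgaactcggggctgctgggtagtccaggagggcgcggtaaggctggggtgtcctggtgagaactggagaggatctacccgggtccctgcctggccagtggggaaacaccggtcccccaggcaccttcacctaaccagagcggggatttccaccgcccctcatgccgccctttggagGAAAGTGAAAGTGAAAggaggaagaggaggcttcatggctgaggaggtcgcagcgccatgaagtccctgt
IFIT1: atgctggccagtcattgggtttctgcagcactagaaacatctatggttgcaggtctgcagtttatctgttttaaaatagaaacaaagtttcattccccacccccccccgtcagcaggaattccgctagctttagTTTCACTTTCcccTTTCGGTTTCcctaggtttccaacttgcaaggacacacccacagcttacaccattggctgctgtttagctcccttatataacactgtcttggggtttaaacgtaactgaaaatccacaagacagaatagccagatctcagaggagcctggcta
OAS3: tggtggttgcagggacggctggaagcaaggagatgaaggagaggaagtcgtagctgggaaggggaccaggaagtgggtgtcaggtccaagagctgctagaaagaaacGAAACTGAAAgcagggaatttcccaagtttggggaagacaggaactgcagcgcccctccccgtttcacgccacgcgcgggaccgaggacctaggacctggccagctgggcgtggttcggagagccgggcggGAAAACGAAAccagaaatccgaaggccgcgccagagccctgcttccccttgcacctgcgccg
IRF1: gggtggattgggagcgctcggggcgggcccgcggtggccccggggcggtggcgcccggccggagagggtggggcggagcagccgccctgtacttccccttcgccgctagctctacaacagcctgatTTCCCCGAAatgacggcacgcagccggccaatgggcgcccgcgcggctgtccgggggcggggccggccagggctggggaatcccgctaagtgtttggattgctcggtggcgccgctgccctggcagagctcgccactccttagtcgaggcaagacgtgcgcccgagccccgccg
These windows lie at chr15:44711267-44711566, plus strand (B2M), chr6:31357130-31357429, minus strand (HLA-B), chr6:33314029-33314328, minus strand (TAPBP), chr10:89392373-89392672, plus strand (IFIT1), chr12:112938224-112938523, plus strand (OAS3) and chr5:132490724-132491023, minus strand (IRF1). B2M holds a pair of overlapping response element cores and, nearer the start, the Y box. HLA-B holds the Y box alone, in reverse orientation, and the same letters were found at the same distance from the start in HLA-C. TAPBP holds overlapping cores just before its start, IFIT1 holds a pair in reverse orientation, and OAS3 holds one far from and one near its start. The capitals of IRF1 are a gamma-activated site. Of the 15 tested genes with the response element core, 10 were called higher and 2 lower with R1881 and MEL-6 against R1881, and 1 higher and 11 lower with R1881 against vehicle. Of the 15 tested genes with a window but no core, 6 were called higher and 3 lower with R1881 and MEL-6 against R1881, and 2 higher and 5 lower with R1881 against vehicle. Over all tested genes, 31.4% were higher and 20.6% lower in the first comparison, and 14.5% and 31.3% in the second. Median log2 changes with and without the core were 0.33 and 0.22 in the first comparison, where that of all tested genes was 0.07. In the second they were -0.43 and 0.02, where that of all tested genes was -0.12. The 2 sets also differed in role, as every receptor, kinase and transcription factor gene with a window lacked the core. Core and role can therefore not be told apart. With R1881 and MEL-6 against vehicle, 3 genes with the core were called higher and 4 lower. Without the core, 4 were higher and 1 lower, where 17.2% and 20.8% of all tested genes were. The search took exact letters, so a window without the core can hold a near variant of it. These counts are a description, and the difference between the 2 sets was not tested.

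Among the class I chains, the light chain gene B2M changed most and the classical heavy chains HLA-B and HLA-C changed little. B2M (chromosome 15, 45003685 to 45010357 on GRCh37) was at 358, 325 and 323 RPKM with R1881 and MEL-6, at 696, 680.2 and 695 RPKM with R1881, and at 217, 237 and 235 RPKM with vehicle. Every R1881 library lay above every other library, and those with R1881 and MEL-6 lay between the R1881 and the vehicle libraries without overlap. B2M fell with R1881 and MEL-6 against R1881 (log2 change -1.04 ± 0.059 SE, adjusted p = 2.63e-07) and rose with R1881 against vehicle (1.59 ± 0.059, adjusted p = 1.09e-08), by 3.01 times in mean RPKM. HLA-C (chromosome 6, 31236529 to 31239855) was at 68.4, 74.2 and 87.3 RPKM with R1881 and MEL-6, at 74.7, 70.95 and 77.8 RPKM with R1881, and at 72.6, 67.9 and 73.6 RPKM with vehicle. Its groups overlapped in every comparison, and the 95% interval of its log2 change was -0.15 to 0.22 with R1881 and MEL-6 against R1881 and -0.12 to 0.24 with R1881 against vehicle. HLA-B (chromosome 6, 31321649 to 31324989) was at 25.9, 27.7 and 32.1 RPKM with R1881 and MEL-6, at 25.9, 23.99 and 24.4 RPKM with R1881, and at 25.6, 24.2 and 23.2 RPKM with vehicle. Its 3 libraries with R1881 and MEL-6 lay above the R1881 libraries by a narrow margin, but it was not called (log2 change 0.20 ± 0.077, adjusted p = 0.0529), although it was called with upper-quartile scaling (adjusted p = 0.0226) and without MEL-6 replicate 1, the first library with both agents (adjusted p = 0.0130). Its log2 change with R1881 against vehicle was 0.02 ± 0.077, with an interval of -0.15 to 0.20.

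The ratio of B2M to the summed levels of HLA-B and HLA-C, both per length, was 3.79, 3.19 and 2.70 in the libraries with R1881 and MEL-6, 6.92, 7.16 and 6.80 with R1881, and 2.21, 2.57 and 2.43 with vehicle. The light chain was thus in excess of these 2 heavy chains in each library, most so with R1881, and the other class I heavy chains are not in this sum. The R1881 ratios lay above all others, and the groups did not overlap. This ratio was chosen after the values were seen, and with 3 libraries against 3 an exact permutation test cannot go below 0.1, so no test is given.

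**Figure D3:**
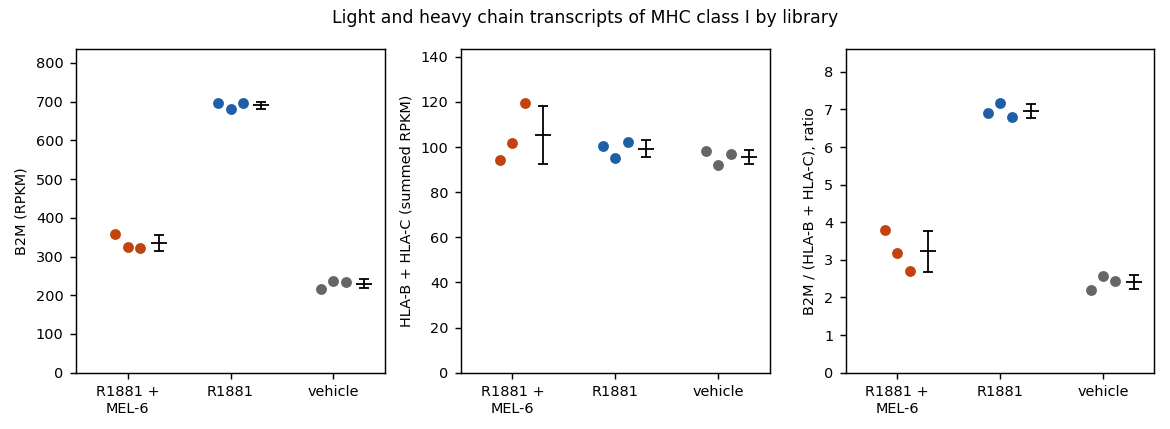
B2M (left, RPKM), the sum of HLA-B and HLA-C (middle, RPKM) and their ratio (right) in each library, with group means and SD (n = 3). B2M and the ratio are highest in the 3 R1881 libraries, while the summed heavy chains overlap between all groups.

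The non-classical chains followed another order. HLA-E, the ligand of the NKG2A receptor of NK cells (chromosome 6, 30457183 to 30461982), was at 4.81, 5.37 and 5.84 RPKM with R1881 and MEL-6, at 2.85, 3.005 and 2.93 RPKM with R1881, and at 3.48, 4.25 and 4.20 RPKM with vehicle. Its groups did not overlap in any comparison, and R1881 libraries were the lowest. HLA-E rose with R1881 and MEL-6 against R1881 (log2 change 0.77 ± 0.096, adjusted p = 8.84e-05) and fell with R1881 against vehicle (-0.38 ± 0.096, adjusted p = 0.00857). HLA-F, found mainly on activated cells, was at 2.68, 1.99 and 1.55 RPKM with R1881 and MEL-6, at 1.51, 1.24 and 0.901 RPKM with R1881, and at 0.972, 1.45 and 1.29 RPKM with vehicle. It rose with R1881 and MEL-6 against R1881 (0.58 ± 0.19, adjusted p = 0.0263), a call that was lost with no filter, without MEL-6 replicate 1 or 2 or without R1881 replicate 2 or 3 (adjusted p 0.0526 to 0.103). For HLA-F in R1881 against vehicle the change was -0.03 ± 0.19 and the groups overlapped. Class I genes are near-identical over long stretches, and HLA-F also overlaps the entry RP3-377H14-5 on the table's coordinates, so reads may have been split between copies and the single values are uncertain.

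All 4 tested genes of peptide trimming and loading rose with R1881 and MEL-6 against R1881, where 31.4% of all tested genes did. All 4 fell with R1881 against vehicle, where 31.3% did. Under median-of-ratios scaling TAP2 was not called in the first comparison and TAP1 was not called in the second. TAPBP encodes tapasin, which bridges the transporter and the empty class I molecule (chromosome 6, 33267471 to 33282164). It was at 22.2, 23.1 and 25.3 RPKM with R1881 and MEL-6, at 16.00, 15.7 and 17.8 RPKM with R1881, and at 22.7, 22.2 and 22.3 RPKM with vehicle. The R1881 libraries were the lowest, without overlap, and the other groups overlapped each other. Its log2 change was 0.50 ± 0.065 with R1881 and MEL-6 against R1881 (adjusted p = 0.000111) and -0.43 ± 0.065 with R1881 against vehicle (adjusted p = 0.000378). ERAP1 (chromosome 5, 96096514 to 96143892) was at 5.54, 5.73 and 4.82 RPKM with R1881 and MEL-6, at 3.24, 3.13 and 3.04 RPKM with R1881, and at 4.35, 4.42 and 4.30 RPKM with vehicle. Every library with R1881 and MEL-6 lay above every vehicle library, and these above every R1881 library, with changes of 0.69 ± 0.080 against R1881 and -0.42 ± 0.080 for R1881 against vehicle (adjusted p = 5.12e-05 and 0.00172). The end of ERAP1 overlaps CAST on the table's coordinates, which lay at 35.2 to 38.9 RPKM with R1881 and MEL-6, 27.6 to 29.6 RPKM with R1881 and 28.5 to 30.1 RPKM with vehicle. As strand use was not stated, reads of the 2 genes may not have been told apart there.

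The transporter subunits TAP1 and TAP2 are neighbours on chromosome 6. TAP1 was at 14.1, 14.7 and 15.8 RPKM with R1881 and MEL-6, at 11.7, 11.4 and 12.01 RPKM with R1881, and at 14.7, 14.5 and 13.6 RPKM with vehicle. The R1881 libraries were the lowest, without overlap. TAP1 changed by 0.33 ± 0.061 with R1881 and MEL-6 against R1881 (adjusted p = 0.00109) and by -0.27 ± 0.061 with R1881 against vehicle (adjusted p = 0.00414), the second of which was not called under median-of-ratios scaling (adjusted p = 0.0570). TAP1 overlaps the entry LOC100507463 on the table's coordinates, which lay at 3.02 to 5.66 RPKM with R1881 and MEL-6, 3.27 to 4.39 RPKM with R1881 and 4.60 to 5.39 RPKM with vehicle, and reads of both may not have been told apart. TAP2 was at 7.73, 8.67 and 8.39 RPKM with R1881 and MEL-6, at 6.89, 6.71 and 7.07 RPKM with R1881, and at 9.85, 10.6 and 10.5 RPKM with vehicle. The 3 groups did not overlap, and vehicle was the highest. TAP2 changed by 0.24 ± 0.065 with R1881 and MEL-6 against R1881 (adjusted p = 0.00921), not called under median-of-ratios scaling (adjusted p = 0.0715), and by -0.55 ± 0.065 with R1881 against vehicle (adjusted p = 6.95e-05).

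NLRC5, the class I transactivator, showed the largest fitted log2 change of the 39 genes. NLRC5 (chromosome 16, 57023410 to 57117436) was at 3.10, 3.06 and 2.98 RPKM with R1881 and MEL-6, at 0.292, 0.396 and 0.262 RPKM with R1881, and at 1.15, 0.907 and 1.002 RPKM with vehicle. The 3 groups lay far apart, and the libraries with R1881 and MEL-6 were the highest. In mean RPKM it was 9.62 times as high with R1881 and MEL-6 as with R1881, and 0.311 times its vehicle level with R1881. On the fitted scale it rose by 2.12 ± 0.12 (adjusted p = 2.36e-07) and fell by 0.90 ± 0.12 (adjusted p = 0.000147). An estimated 145 to 257 reads stood behind each value with R1881 and MEL-6, 27.9 to 36.3 with R1881 and 45.8 to 89.0 with vehicle. Among the class I chains, HLA-B and HLA-C were called in neither of these comparisons. HLA-E and HLA-F were called higher and B2M lower with R1881 and MEL-6 against R1881. In R1881 against vehicle HLA-E was called lower, B2M higher and HLA-F not at all. Whether NLRC5 acted on any of these genes was not tested.

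**Figure D4:**
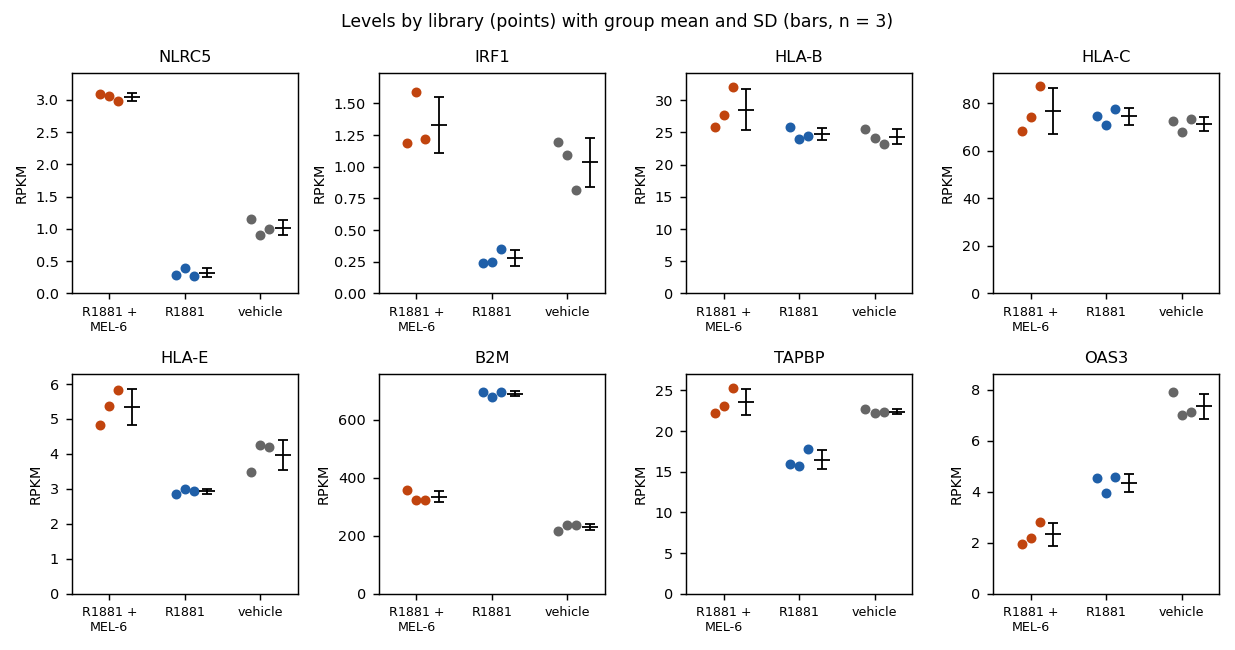
RPKM per library (points) with the group mean and SD (bars, n = 3) for NLRC5, IRF1, HLA-B, HLA-C, HLA-E, B2M, TAPBP and OAS3, each axis starting at 0. NLRC5, IRF1, HLA-E and TAPBP are lowest with R1881, B2M is highest with R1881, HLA-C overlaps between groups, and OAS3 is lowest with R1881 and MEL-6.

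The cytosolic RNA sensors DDX58, also named RIG-I, and IFIH1, also named MDA5, both start interferon production on viral RNA. DDX58 was at 2.45, 2.57 and 2.22 RPKM with R1881 and MEL-6, at 1.67, 1.61 and 1.65 RPKM with R1881, and at 2.32, 3.02 and 2.74 RPKM with vehicle. IFIH1 was at 3.80, 3.34 and 3.77 RPKM with R1881 and MEL-6, at 2.60, 2.33 and 2.37 RPKM with R1881, and at 3.59, 3.71 and 3.41 RPKM with vehicle. In both genes every R1881 library lay below every other library, and the libraries with R1881 and MEL-6 overlapped vehicle. Against R1881, the log2 changes with R1881 and MEL-6 were 0.44 ± 0.11 for DDX58 and 0.49 ± 0.085 for IFIH1 (adjusted p = 0.00511 and 0.000722). R1881 against vehicle gave -0.57 ± 0.11 and -0.47 ± 0.085 (adjusted p = 0.00137 and 0.00121).

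The interferon receptor chains were all expressed and did not move as one. The ligand-binding chain of the gamma receptor, IFNGR1, was at 15.2, 12.3 and 13.8 RPKM with R1881 and MEL-6, at 17.2, 14.9 and 16.04 RPKM with R1881, and at 11.2, 11.2 and 11.6 RPKM with vehicle. It was lowest with vehicle, without overlap, and rose with R1881 against vehicle (log2 change 0.48 ± 0.079, adjusted p = 0.000678). Against R1881 it fell with R1881 and MEL-6 by 0.22 ± 0.079 (adjusted p = 0.0394) with overlapping groups, and this call was lost under upper-quartile scaling, with no filter, with a fit of the 2 groups alone, without MEL-6 replicate 2 or 3, without R1881 replicate 1 or 3 or without vehicle replicate 1 or 2 (adjusted p 0.0504 to 0.148). Its partner IFNGR2 was at 18.2, 17.6 and 16.8 RPKM with R1881 and MEL-6, at 14.3, 13.5 and 13.9 RPKM with R1881, and at 15.8, 15.5 and 16.5 RPKM with vehicle. IFNGR2, which overlaps the entry LOC100506260, was lowest with R1881, and rose with R1881 and MEL-6 against R1881 (0.33 ± 0.055, adjusted p = 0.000558). The fall of IFNGR2 with R1881 against vehicle was 0.19 ± 0.055 (adjusted p = 0.0153), a call lost under median-of-ratios scaling, without R1881 replicate 2 or without vehicle replicate 3 (adjusted p 0.0574 to 0.326). IFNAR1 was at 13.2, 12.6 and 12.6 RPKM with R1881 and MEL-6, at 17.3, 15.4 and 15.7 RPKM with R1881, and at 13.9, 16.1 and 15.4 RPKM with vehicle. It was lowest with R1881 and MEL-6, and fell against R1881 (-0.33 ± 0.069, adjusted p = 0.00250), while with R1881 against vehicle it was not called (0.09 ± 0.069, adjusted p = 0.310) except under median-of-ratios scaling (adjusted p = 0.0358). IFNAR2, between 4.60 and 6.42 RPKM over all libraries, overlapped between all groups. IFNAR2, IFNAR1 and IFNGR2 lie within a short stretch of chromosome 21, and their orders of groups differed.

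Of the receptor kinases, JAK1, which serves both receptor types, was the lowest per length. JAK1 was at 2.01, 1.95 and 1.84 RPKM with R1881 and MEL-6, at 1.63, 1.70 and 1.46 RPKM with R1881, and at 1.32, 1.25 and 1.66 RPKM with vehicle. The libraries with R1881 and MEL-6 lay above all others, but the call was not made against R1881 (0.22 ± 0.11, adjusted p = 0.131). JAK2, the partner of IFNGR2, was at 17.1, 15.6 and 14.9 RPKM with R1881 and MEL-6, at 11.2, 10.8 and 9.90 RPKM with R1881, and at 12.9, 13.8 and 14.6 RPKM with vehicle. Its 3 groups did not overlap, with changes of 0.56 ± 0.074 for R1881 with MEL-6 against R1881 and -0.36 ± 0.074 for R1881 against vehicle (adjusted p = 0.000122 and 0.00273). The level of JAK2 was 8.51, 8.02 and 8.09 times that of JAK1 with R1881 and MEL-6, 6.86, 6.38 and 6.76 times with R1881, and 9.75, 11.1 and 8.75 times with vehicle. TYK2, the partner of IFNAR1, stayed between 13.3 and 16.1 RPKM. It was called higher with R1881 and MEL-6 against R1881 (0.16 ± 0.059, adjusted p = 0.0461), which was lost under median-of-ratios scaling, with the replicate block, with a fit of the 2 groups alone, without MEL-6 replicate 2 or 3, without R1881 replicate 1, 2 or 3 or without vehicle replicate 1 or 2 (adjusted p 0.0558 to 0.424). TYK2 was not called with R1881 against vehicle (-0.10 ± 0.059, adjusted p = 0.197).

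Among the transcription factors, IRF1 moved most. IRF1 (chromosome 5, 131817301 to 131826465) was at 1.19, 1.59 and 1.22 RPKM with R1881 and MEL-6, at 0.239, 0.251 and 0.351 RPKM with R1881, and at 1.19, 1.10 and 0.814 RPKM with vehicle. The highest R1881 library, at 0.351 RPKM, lay under the lowest of the others, at 0.814 RPKM, and an estimated 12.7 to 25.5 reads stood behind each R1881 value. IRF1 rose with R1881 and MEL-6 against R1881 (1.23 ± 0.15, adjusted p = 7.22e-05) and fell with R1881 against vehicle (-0.97 ± 0.15, adjusted p = 0.000455). IRF2, which binds the same elements and can oppose IRF1, was at 10.1, 8.49 and 9.95 RPKM with R1881 and MEL-6, at 7.39, 6.92 and 7.58 RPKM with R1881, and at 7.01, 6.83 and 7.36 RPKM with vehicle. It was highest with R1881 and MEL-6, with a rise of 0.36 ± 0.077 against R1881 (adjusted p = 0.00298), whereas the R1881 and vehicle groups overlapped. IRF7, the factor that amplifies type I interferon production, was at 6.43, 7.81 and 8.49 RPKM with R1881 and MEL-6, at 6.15, 6.10 and 5.46 RPKM with R1881, and at 4.73, 5.73 and 5.35 RPKM with vehicle. It rose against R1881 (0.33 ± 0.11, adjusted p = 0.0237), a call lost under median-of-ratios scaling, without MEL-6 replicate 2 or 3 or without R1881 replicate 3 (adjusted p 0.0707 to 0.0866), and was not called with R1881 against vehicle (0.15 ± 0.11).

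STAT3, activated mainly by cytokines of the interleukin-6 family, went the other way from IRF1. STAT3 was at 35.3, 39.1 and 40.8 RPKM with R1881 and MEL-6, at 44.5, 44.5 and 46.2 RPKM with R1881, and at 36.8, 33.4 and 35.7 RPKM with vehicle. It was highest with R1881, without overlap, and fell with R1881 and MEL-6 against R1881 (-0.23 ± 0.062, adjusted p = 0.0103) and rose with R1881 against vehicle (0.35 ± 0.062, adjusted p = 0.00112). The components of the type I signal, STAT2 and IRF9, were called in neither comparison, although every library with R1881 and MEL-6 lay above every R1881 library. STAT2 lay between 13.4 and 16.6 RPKM and IRF9 between 2.90 and 4.95 RPKM. Their log2 intervals were -0.02 to 0.25 and -0.02 to 0.48 with R1881 and MEL-6 against R1881. IRF3, the factor that RNA sensors switch on, lay between 18.2 and 20.9 RPKM with overlapping groups. IRF3 was called under median-of-ratios scaling alone, lower with R1881 and MEL-6 against R1881 (-0.19, adjusted p = 0.0249) and higher with R1881 against vehicle (0.20, adjusted p = 0.0271).

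Of the 17 interferon-stimulated effectors, 13 were tested. Of these, 6 rose and 2 fell with R1881 and MEL-6 against R1881, where 31.4% of all tested genes rose and 20.6% fell. In R1881 against vehicle 0 rose and 8 fell, where 14.5% of all tested genes rose and 31.3% fell. The IFIT genes, neighbours on chromosome 10 whose proteins bind foreign RNA or each other, were low. IFIT1 was at 1.72, 1.35 and 1.19 RPKM with R1881 and MEL-6, at 0.878, 0.798 and 0.949 RPKM with R1881, and at 2.16, 2.24 and 1.67 RPKM with vehicle. IFIT2 was at 1.92, 1.37 and 1.51 RPKM with R1881 and MEL-6, at 0.508, 0.616 and 0.669 RPKM with R1881, and at 1.40, 1.39 and 1.20 RPKM with vehicle. IFIT3 was at 0.379, 0.581 and 0.585 RPKM with R1881 and MEL-6, at 0.238, 0.221 and 0.174 RPKM with R1881, and at 0.489, 0.451 and 0.518 RPKM with vehicle. In all 3 genes every R1881 library lay below every other library. The changes with R1881 and MEL-6 against R1881 were 0.47 ± 0.14 for IFIT1, 0.93 ± 0.13 for IFIT2 and 0.51 ± 0.15 for IFIT3 (adjusted p = 0.0153, 0.000214 and 0.0160). The call of IFIT1 was lost without MEL-6 replicate 1 or without R1881 replicate 2 (adjusted p 0.0523 to 0.0531), and that of IFIT3 without MEL-6 replicate 2 or 3 or without R1881 replicate 3 (adjusted p 0.0531 to 0.0562). In R1881 against vehicle they were -0.87 ± 0.14, -0.74 ± 0.13 and -0.47 ± 0.15 (adjusted p = 0.000561, 0.00122 and 0.0261), and the call of IFIT3 was lost without R1881 replicate 1, 2 or 3 or without vehicle replicate 1 or 3 (adjusted p 0.0528 to 0.0830). The IFIT genes resemble each other, and IFIT3 overlaps the entry LOC100507575, so IFIT3 with its 6.8 to 18.9 estimated reads per library is the least certain.

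MX1, a GTPase that blocks influenza virus, was at 1.74, 1.08 and 1.10 RPKM with R1881 and MEL-6, at 0.453, 0.556 and 0.455 RPKM with R1881, and at 1.41, 1.31 and 1.26 RPKM with vehicle. It was lowest with R1881, with changes of 0.85 ± 0.15 for R1881 with MEL-6 against R1881 and -0.89 ± 0.15 for R1881 against vehicle (adjusted p = 0.000897 and 0.000883). IFI35 was at 8.67, 9.83 and 9.95 RPKM with R1881 and MEL-6, at 5.25, 5.27 and 6.19 RPKM with R1881, and at 9.06, 8.16 and 7.74 RPKM with vehicle. IFI35 rose against R1881 (0.72 ± 0.089, adjusted p = 7.89e-05) and fell with R1881 against vehicle (-0.54 ± 0.089, adjusted p = 0.000695). IFI6, a small mitochondrial and ER protein that protects from apoptosis, was at 7.99, 9.38 and 10.2 RPKM with R1881 and MEL-6, at 6.53, 7.56 and 8.27 RPKM with R1881, and at 12.2, 11.1 and 10.8 RPKM with vehicle. Vehicle was the highest without overlap, and IFI6 fell with R1881 against vehicle (-0.59 ± 0.10, adjusted p = 0.00109). Its rise with R1881 and MEL-6 against R1881 (0.28 ± 0.10, adjusted p = 0.0405) came with overlapping groups and was lost under median-of-ratios scaling, with no filter, with a fit of the 2 groups alone, without MEL-6 replicate 2 or 3, without R1881 replicate 1 or 2 or without vehicle replicate 2 (adjusted p 0.0538 to 0.156).

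OAS1, OAS2 and OAS3 make 2′-5′ oligoadenylate, which activates RNase L, and their genes are neighbours on chromosome 12. OAS3 (chromosome 12, 113376249 to 113411054) was at 1.97, 2.17 and 2.83 RPKM with R1881 and MEL-6, at 4.53, 3.93 and 4.58 RPKM with R1881, and at 7.92, 7.02 and 7.12 RPKM with vehicle. The 3 groups did not overlap, and R1881 with MEL-6 was the lowest. OAS3 fell with R1881 and MEL-6 against R1881 (-0.79 ± 0.12, adjusted p = 0.000244) and fell with R1881 against vehicle (-0.70 ± 0.12, adjusted p = 0.000702), so it was called lower in each comparison. Against vehicle the level with R1881 and MEL-6 was 0.316 times as high in mean RPKM. OAS1, next to it, was at 0.613, 0.536 and 0.129 RPKM with R1881 and MEL-6, at 0.209, 0.313 and 0.219 RPKM with R1881, and at 0.579, 0.566 and 0.515 RPKM with vehicle. MEL-6 replicate 3 lay under the others, and no call was made against R1881 (0.27 ± 0.21, adjusted p = 0.315), though without that library there was one (0.53, adjusted p = 0.0232). OAS1 lay lower in every R1881 library than in every vehicle library but was not called (-0.50 ± 0.21, adjusted p = 0.0805), and was called without MEL-6 replicate 3 (adjusted p = 0.0192) and in a fit of the 2 groups alone (adjusted p = 0.0238). OASL, a relative without the enzyme activity, lay between 0.351 and 1.01 RPKM and was not called (adjusted p = 0.882 and 0.147).

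The IFITM genes, neighbours on chromosome 11 whose proteins block virus entry at membranes, ranged from IFITM1, under 1 RPKM in group mean, to IFITM3. IFITM3 was at 66.5, 59.2 and 66.4 RPKM with R1881 and MEL-6, at 51.3, 61.9 and 61.7 RPKM with R1881, and at 75.6, 68.3 and 69.3 RPKM with vehicle. It fell with R1881 against vehicle (-0.29 ± 0.081, adjusted p = 0.0151), a call lost under median-of-ratios scaling, without R1881 replicate 1 or without vehicle replicate 1 (adjusted p 0.0536 to 0.127), and was not called with R1881 and MEL-6 against R1881 (0.14 ± 0.081). IFITM2 was at 10.97, 9.32 and 11.9 RPKM with R1881 and MEL-6, at 12.3, 14.2 and 13.2 RPKM with R1881, and at 13.9, 11.6 and 12.5 RPKM with vehicle. It fell with R1881 and MEL-6 against R1881 (-0.29 ± 0.098, adjusted p = 0.0285), which was lost with no filter, without MEL-6 replicate 2 or without R1881 replicate 2 or 3 (adjusted p 0.0509 to 0.108), and was not called with R1881 against vehicle (0.06 ± 0.098). IFITM1 was at 0.406, 0.452 and 0.387 RPKM with R1881 and MEL-6, at 0.595, 0.621 and 0.217 RPKM with R1881, and at 1.10, 0.188 and 0.299 RPKM with vehicle. The high vehicle library held an estimated 13.0 reads, and the groups overlapped in every comparison. Reads shared between these close copies may have been split, so their single values are uncertain.

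ISG15, a ubiquitin-like modifier and one of the most abundant interferon-induced genes, was at 29.9, 35.2 and 37.6 RPKM with R1881 and MEL-6, at 32.99, 34.7 and 38.3 RPKM with R1881, and at 43.7, 42.05 and 28.9 RPKM with vehicle. Its groups overlapped, and its log2 change was -0.05 ± 0.14 with R1881 and MEL-6 against R1881 (interval -0.36 to 0.27) and -0.09 ± 0.14 with R1881 against vehicle (interval -0.41 to 0.23). Vehicle replicate 3 lay under the other vehicle libraries, and without it ISG15 was called lower with R1881 against vehicle (-0.28, adjusted p = 0.0478).

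Other genes of the pathway were taken from 10 lists of 95 genes in all, of which 92 were in the table and 60 were tested. Among these 60, 22 rose and 10 fell with R1881 and MEL-6 against R1881 (median log2 change 0.08), and with R1881 against vehicle 12 rose and 20 fell (median -0.16). These counts lie close to the shares of all tested genes, 31.4% higher and 20.6% lower in the first comparison and 14.5% and 31.3% in the second, which are also the shares to set beside each list below. The 6 interferon genes in the table, IFNB1 among them, were listed at 0 in every library. Of 20 tested further interferon-stimulated genes, 9 rose and 0 fell with R1881 and MEL-6 against R1881 (31.4% and 20.6% of all tested genes), led by the guanylate-binding GBP2 (1.27 ± 0.13, adjusted p = 2.56e-05) and UBE2L6, the conjugating enzyme of ISG15 (0.96 ± 0.12, adjusted p = 0.000103). In R1881 against vehicle 2 of these 20 rose, the ISG15 ligase HERC5 (1.13 ± 0.14, adjusted p = 0.000114) and the exonuclease ISG20 (0.92 ± 0.14, adjusted p = 0.000478), and 8 fell (14.5% and 31.3% of all tested genes). HERC5 was at 3.65, 2.58 and 2.32 RPKM with R1881 and MEL-6, at 3.17, 3.29 and 3.10 RPKM with R1881, and at 0.997, 1.34 and 1.22 RPKM with vehicle, and both HERC5 and ISG20 lay above every vehicle library in each library with R1881, with or without MEL-6.

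In the immunoproteasome list, 2 of 5 rose and 1 fell with R1881 and MEL-6 against R1881. The catalytic subunit PSMB8 was at 2.35, 1.36 and 1.20 RPKM with R1881 and MEL-6, at 0.570, 0.839 and 0.604 RPKM with R1881, and at 1.08, 2.09 and 0.969 RPKM with vehicle, with a rise of 0.84 ± 0.25 against R1881 (adjusted p = 0.0157). PSMB9, whose gene adjoins TAP1, changed by 0.67 ± 0.19 (adjusted p = 0.0141). None of the 5 rose with R1881 against vehicle, and 2 fell, PSMB10 (-0.37 ± 0.082) and PSME1 (-0.36 ± 0.050). Of the 5 ER chaperones of peptide loading, 1 rose and 3 fell with R1881 and MEL-6 against R1881, with the lectin chaperone CALR at -0.58 ± 0.056 and the tapasin relative TAPBPL at 0.52 ± 0.13, and 4 rose with R1881 against vehicle, led by HSPA5 (0.67 ± 0.048) and PDIA3 (0.46 ± 0.049). The MHC enhanceosome, the complex on which NLRC5 and CIITA act, had 1 of 7 higher, RFXAP (0.52 ± 0.12), and 1 lower, RFX5 (-0.24 ± 0.050), with R1881 and MEL-6 against R1881. In R1881 against vehicle 0 of the 7 rose and 2 fell, RFXAP (-0.49 ± 0.12) and NFYB (-0.30 ± 0.11).

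Of 9 MHC class II genes and partners, 3 were tested, and the invariant chain CD74 was listed at 0 in every library. The peptide exchange factor HLA-DMA was at 12.5, 11.3 and 12.9 RPKM with R1881 and MEL-6, at 26.2, 25.1 and 29.7 RPKM with R1881, and at 10.5, 9.43 and 10.1 RPKM with vehicle. It fell with R1881 and MEL-6 against R1881 (-1.11 ± 0.078, adjusted p = 1.23e-06), as did HLA-DMB (-1.05 ± 0.074), and both rose with R1881 against vehicle, with HLA-DMA at 1.39 ± 0.078. HLA-DQB1 was the 1 that fell in that comparison (-0.71 ± 0.11). Of 3 tested stress ligands of NK cells, 2 rose with R1881 and MEL-6 against R1881, and ULBP1, a ligand of the NKG2D receptor, was at 9.27, 9.04 and 8.54 RPKM with R1881 and MEL-6, at 2.35, 2.65 and 2.85 RPKM with R1881, and at 5.24, 5.20 and 5.43 RPKM with vehicle. Its groups did not overlap in any comparison, with changes of 1.60 ± 0.078 for R1881 with MEL-6 against R1881 (adjusted p = 9.17e-08) and -0.90 ± 0.078 for R1881 against vehicle (adjusted p = 7.42e-06). ULBP2 changed by 0.87 ± 0.16 in the first of these.

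Of 8 tested adaptors and kinases of nucleic acid sensing, 4 rose and 1 fell with R1881 and MEL-6 against R1881 (31.4% and 20.6% of all tested genes), and 1 rose and 4 fell with R1881 against vehicle (14.5% and 31.3%). TLR3, the endosomal sensor of double-stranded RNA, was at 1.17, 1.33 and 1.25 RPKM with R1881 and MEL-6, at 0.514, 0.366 and 0.199 RPKM with R1881, and at 1.32, 1.52 and 1.67 RPKM with vehicle. It was lowest with R1881, with changes of 1.04 ± 0.15 for R1881 with MEL-6 against R1881 and -1.23 ± 0.15 for R1881 against vehicle. TMEM173, also named STING, changed by 0.57 ± 0.20 and -0.95 ± 0.20 in these comparisons. Among 7 tested negative regulators, 2 rose and 2 fell with R1881 and MEL-6 against R1881, and 3 rose and 0 fell with R1881 against vehicle. PIAS1, which inhibits DNA binding by STAT proteins, was at 15.02, 13.3 and 14.6 RPKM with R1881 and MEL-6, at 32.7, 34.1 and 34.8 RPKM with R1881, and at 13.2, 12.9 and 14.8 RPKM with vehicle. It was highest with R1881, with changes of -1.22 ± 0.067 and 1.28 ± 0.067, and the phosphatase PTPN1, which acts on JAK2 and TYK2, changed by -0.84 ± 0.059 and 0.66 ± 0.059. Of 2 tested further STAT genes, STAT5B changed by 0.41 ± 0.056 with R1881 and MEL-6 against R1881 and by -0.24 ± 0.056 with R1881 against vehicle, both called.

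With R1881 and MEL-6 against vehicle, 11 of the 39 genes were called higher, where 17.2% of all tested genes were, and 5 lower, where 20.8% were, so 16 in all against 38.0%. Without any test, 14 lay higher and 5 lower in every library, as did 21.6% and 24.9% of all tested genes. The split was 13 higher and 3 lower with median-of-ratios scaling, and 15 and 2 with upper-quartile scaling, which called 2769 of all tested genes higher and 2188 lower, in place of 2290 and 2761. The calls that held under every alternative were the rises of NLRC5 (1.23 ± 0.12, adjusted p = 2.72e-05), B2M (0.54 ± 0.059, adjusted p = 6.08e-05), IRF7 (0.48 ± 0.11), IRF2 (0.40 ± 0.077) and HLA-E (0.38 ± 0.096), and the falls of OAS3 (-1.49 ± 0.12, adjusted p = 6.34e-06) and TAP2 (-0.30 ± 0.065). NLRC5 was 2.99 times its vehicle level in mean RPKM. The other 9 calls were each lost in at least 1 alternative. Of these HLA-F was called higher (0.55 ± 0.19), but not with no filter, with a fit of the 2 groups alone, without MEL-6 replicate 1 or 2, without R1881 replicate 2 or without vehicle replicate 1 or 3 (adjusted p 0.0564 to 0.134), and JAK1 (0.35 ± 0.11), but not with the replicate block, with a fit of the 2 groups alone, without MEL-6 replicate 1 or 2 or without vehicle replicate 1 or 2 (adjusted p 0.0608 to 0.0974). IRF9 (0.34 ± 0.11) was not called with no filter, with the replicate block, with a fit of the 2 groups alone, without MEL-6 replicate 1 or 3, without R1881 replicate 2 or without vehicle replicate 1 or 2 (adjusted p 0.0522 to 0.120). ERAP1 (0.27 ± 0.080) was not called with a fit of the 2 groups alone, without MEL-6 replicate 1 or 2 or without vehicle replicate 1 or 3 (adjusted p 0.0548 to 0.0881). IFNGR1 (0.26 ± 0.079) was not called without MEL-6 replicate 1 or 3 or without vehicle replicate 1 or 2 (adjusted p 0.0526 to 0.0691). HLA-B (0.22 ± 0.077) was not called with no filter, with the replicate block, with a fit of the 2 groups alone, without MEL-6 replicate 2 or 3, without R1881 replicate 1, 2 or 3 or without vehicle replicate 2 or 3 (adjusted p 0.0568 to 0.131). Of the genes called lower, IFIT1 (-0.40 ± 0.14) was not called under median-of-ratios scaling, under upper-quartile scaling, with a pseudocount of 0.1, with no filter, with the replicate block, with a fit of the 2 groups alone, without MEL-6 replicate 2 or 3, without R1881 replicate 1, 2 or 3 or without vehicle replicate 1 or 2 (adjusted p 0.0532 to 0.140). IFI6 (-0.30 ± 0.10) was not called under median-of-ratios scaling, under upper-quartile scaling, with no filter, with the replicate block, with a fit of the 2 groups alone, without MEL-6 replicate 1 or 2, without R1881 replicate 2 or without vehicle replicate 1, 2 or 3 (adjusted p 0.0501 to 0.129). IFNAR1 (-0.24 ± 0.069) was not called under upper-quartile scaling, without MEL-6 replicate 2 or 3 or without vehicle replicate 2 or 3 (adjusted p 0.0501 to 0.0778). Among the 23 genes not called, the intervals still leave room for a difference from vehicle, such as -0.08 to 0.59 for IRF1, -0.37 to 0.30 for MX1 and -0.08 to 0.21 for TAPBP on the log2 scale.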

How the data were processed

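The deposited table gives 1 value per gene and library. No header or label used here names the unit of the deposited values, and the sheet's name speaks of counts. They have up to 5 decimals, so they are not read counts, and they were taken as RPKM because the lowest values of 4072 low genes, times gene length, lay within 20% of 1 common value for 47.3% of genes, against 17.7% without length. Whether the authors scaled to all or only to mapped reads is not given, and another constant would move all levels and depths together. Per the submitters' processing notes the build was GRCh37 (hg19) and CASAVA 1.8 was used. Annotation, read filters and strand use are not given in the sources used here, and per the labels libraries were made with a TruSeq RNA kit. Columns were matched to samples by the library numbers and worksheet cells in the labels. Depth was estimated from the steps of low values and exon lengths of GENCODE release 29, so read numbers are estimates and cover counting error only. The deposited values were tested with limma-trend (limma version 3.58.1, run under R 4.3.3) after adding 0.5 RPKM and taking log2, with all 9 libraries in 1 model (residual df 6, prior df 4.31), genes at 0.5 RPKM or more in at least 3 libraries, two-sided tests and Benjamini-Hochberg adjustment over 13295 entries. The test was checked on simulated data with few changed genes and no shift in scaling. That check does not cover the many changed genes and the scaling differences seen here. Intervals are 95%. Alternatives were the pseudocount, the filter, the scaling, the replicate number as a block, the fit of 2 groups and leaving out each library. The members and lists were chosen with earlier results of these data known. All members are accounted for, and other pathway genes are named by size, up to 2 called genes per list and comparison, others being named for a count or contrast after their values were seen. Replicates are labelled biological, but whether they came from separate experiments is not given, so p-values measure the spread between these libraries. RefSeq promoter windows are on GRCh38.p14, and the table's coordinates on GRCh37.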

Additional observations from a re-analysis of the deposited data

How the results depend on the processing

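With R1881 against vehicle, the 3 higher calls and 15 of the 19 lower calls held under every alternative that gave a value. IFIT3 gave none with a filter of 1 RPKM, which it does not reach in 3 libraries. For R1881 with MEL-6 against R1881, 14 of 21 higher and 4 of 6 lower calls did, and with R1881 and MEL-6 against vehicle 5 of 11 and 2 of 5. No call reversed its direction. Leaving out 1 library at a time gave 3 to 3 higher and 17 to 20 lower calls with R1881 against vehicle, 16 to 21 and 4 to 6 with R1881 and MEL-6 against R1881, and 6 to 10 and 2 to 4 with R1881 and MEL-6 against vehicle. With median-of-ratios scaling 5 genes were higher with R1881 against vehicle, in place of 3. For R1881 with MEL-6 against vehicle, 6 were higher in place of 11 in a fit of the 2 groups alone. The 5 lower calls there became 3 with no filter, with median-of-ratios scaling, in the fit of the 2 groups alone and with the replicate block, and 2 with upper-quartile scaling. The causes were not tested. Correlations of deviations were -0.20 to 0.20 between same-numbered libraries of different groups and -0.18 to 0.19 between differently numbered ones. These values show no sign of pairing by number, but they cannot show that the replicates were unpaired. The replicate block moved no other count by over 1.5 times. Low genes rest on few reads, IFIT3, IFITM1, OAS1 and OASL most so.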
